A study of Homo sapiens with 6 samples.

Results

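Genes that act in G2 phase and mitosis were followed across DDX3X knockdown and overexpression in HEK293T cells. The group holds 34 genes, taken by symbol from a list of G2 and mitosis genes, of 23204 gene symbols in the expression tables, and all 34 were found in every table. Where a symbol had several rows, the row with the highest mean value over the 6 libraries stood for the gene. All 34 passed the filter on low values in every comparison, with at least 1 RPKM (reads per kilobase of transcript, scaled to the reads of the library) in each library.

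Entry into mitosis is driven by the kinase CDK1 bound to cyclin B. The phosphatases of the CDC25 family switch this kinase on, and PLK1 and the Aurora kinases carry the signal to centrosomes, chromosomes and the spindle. The spindle checkpoint holds the anaphase-promoting complex (APC/C) inactive until every kinetochore is attached, and the APC/C with CDC20 then marks cyclin B for destruction. The mRNAs of most of these proteins peak together in late S, G2 and M phase. That timing is set by MuvB, B-MYB and FOXM1, which act through a promoter motif called the cell cycle genes homology region (CHR), and by NF-Y, which binds CCAAT boxes.

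HEK293T is a human embryonic kidney line that carries the large T antigen of a simian virus, a protein that binds p53 and the RB family. DDX3X is a DEAD-box RNA helicase, and the study asked how its medulloblastoma-associated mutants affect stress granule assembly and translation. RNA-seq was used there to compare mRNA levels after knockdown and overexpression. The paper reported no significant effect of knockdown, or of WT or mutant overexpression, on mRNA levels, whether or not DDX3X bound the mRNAs. RNA-seq was made from total RNA of 6 cultures, with 1 library per group. In the siRNA arm, cells received control siRNA or DDX3X siRNA for 48 h, and no sorting is described. In the plasmid arm, cells were transiently transfected with 5 µg of plasmid for GFP, GFP-WT DDX3X, GFP-DDX3X T275M or GFP-DDX3X G302V, and the GFP-positive cells were collected by flow cytometry. The labels give 32 h for the plasmids in one clause and a shorter time in another. Endogenous DDX3X was present in all plasmid groups. A legend in the study names another mutant beside G302V, so that library is named here as GEO labels it. The groups are called control siRNA, DDX3X siRNA, GFP, WT, T275M and G302V below.

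Because each group is 1 library, no difference has a replicate check, and no test was possible. A log2 ratio is the difference of log2(RPKM + 1) between 2 libraries. The range given after a ratio is an exact 95% counting interval (Clopper-Pearson) on the read numbers. With 1 library per group it covers counting error only. No molecular identifiers mark which reads came from separate molecules, so even counting error may be understated. Counts and medians of the 34 genes are set beside the same figures over all genes that passed the filter, 12694 to 12973 by comparison. Libraries held 43715119 to 67520582 reads, except DDX3X siRNA with 180868393 reads. The rarest member in any library was CENPA in G302V with 987 reads. DDX3X was at 107 RPKM with control siRNA and 31.3 RPKM with DDX3X siRNA, which is 29.3% of the control, and at 119 RPKM in GFP against 1906 to 3279 RPKM in the 3 DDX3X plasmid libraries. The labels call the cell type neuronal. Of 14 neuron markers, 7 stayed under 1 RPKM in all 6 libraries, with DCX, ELAVL3, ELAVL4 and STMN2 at 0.010 RPKM or less. Another 6 were at 1 RPKM or more in all 6 libraries, namely SYT1, SYP, TUBB3, GAD1 and the neurofilament genes NEFL and NEFM. Of these, NEFL and NEFM were highest, at 109 to 140.2 and 514 to 683 RPKM. The keratins KRT8 (7.59 to 12.2 RPKM) and KRT18 (34.3 to 47.3 RPKM) were the 2 of 7 epithelial and kidney markers at 1 RPKM or more in all 6 libraries, and EPCAM, PAX2 and PAX8 were under 1 RPKM in all 6.

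The promoters of the members were searched for the motifs named above. RefSeq promoter entries (GRCh38.p14, from 250 bases before to 50 bases after an annotated start) were found for 29 of the 34 members, 38 entries in all, and none for TTK, TPX2, UBE2C, AURKA or BIRC5. The entries were searched on both strands for the CHR (TTTGAA), a CHR variant (TTCGAA) and the CCAAT box (CCAAT). A match to one motif never counts as a match to another, but neighbouring matches can share bases, as the CCAAT boxes on opposite strands of HMMR do. The CHR was present in 25 of 38 entries, against 15.2% of all 35116 promoters in the table. The CCAAT box was present in 30 of 38, against 34.6% of all promoters, and both together in 23 of 38, against 5.90%. The variant was found in 2 entries (CDC25B and BUB1), against 1.45% of all promoters.

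By gene, 22 of 29 members had a CHR in at least 1 entry, against 13.4% of 8737 expressed genes with an entry. A CCAAT box was present in 26 of 29 members, against 44.1% of those genes. The median position was -29 bases from the start for the CHR and -84 bases for the CCAAT box, and 16 of 29 members had a CHR between -80 and +20, against 4.44% of expressed genes with an entry, a window chosen after the positions were seen. Members with 3 or more CCAAT boxes in 1 promoter numbered 10, and the share of all genes for this is not given. A match is a description of letters in a window and not a measured binding site. The stretches below run from -120 to +29 with matches in capitals, and were chosen to show the classic arrangement (CDK1, CCNB2, PLK1), a doubled CHR (HMMR), and the CHR promoter and the promoter without a match of the kinesins at either end of the knockdown ratios (KIF23 and KIF2C).
CDK1, chr10:60778358-60778507, plus strand: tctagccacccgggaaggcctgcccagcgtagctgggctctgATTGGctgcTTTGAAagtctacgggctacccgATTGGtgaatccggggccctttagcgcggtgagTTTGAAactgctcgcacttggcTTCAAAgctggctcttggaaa
CCNB2, chr15:59105026-59105175, plus strand: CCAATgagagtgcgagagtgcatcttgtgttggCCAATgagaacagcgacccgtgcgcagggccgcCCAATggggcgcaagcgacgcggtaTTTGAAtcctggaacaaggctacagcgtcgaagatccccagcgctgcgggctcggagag
PLK1, chr16:23678769-23678918, plus strand: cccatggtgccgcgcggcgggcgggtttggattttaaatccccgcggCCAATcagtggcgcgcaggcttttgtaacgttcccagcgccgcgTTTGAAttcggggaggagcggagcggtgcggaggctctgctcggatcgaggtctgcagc
HMMR, chr5:163460512-163460661, plus strand: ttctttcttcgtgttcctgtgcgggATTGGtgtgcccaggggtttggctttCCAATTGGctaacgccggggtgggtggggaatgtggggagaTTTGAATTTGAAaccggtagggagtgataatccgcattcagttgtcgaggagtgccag
KIF23, chr15:69414229-69414378, plus strand: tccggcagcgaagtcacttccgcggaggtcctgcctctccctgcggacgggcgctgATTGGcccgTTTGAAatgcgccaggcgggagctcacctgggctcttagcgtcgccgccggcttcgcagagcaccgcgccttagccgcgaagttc
KIF2C, chr1:44739717-44739866, plus strand: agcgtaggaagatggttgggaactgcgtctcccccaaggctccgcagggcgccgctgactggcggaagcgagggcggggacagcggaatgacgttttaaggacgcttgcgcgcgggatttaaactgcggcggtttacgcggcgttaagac
In CDK1 the 3 CHR matches lie 9, 33 and 55 bases after the nearest CCAAT box upstream of them. In CCNB2 and PLK1 the single CHR lies 25 and 44 bases after it. KIF2C and CENPE were the members without a match to any of the 3 motifs in their entries.

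**Figure D1:**
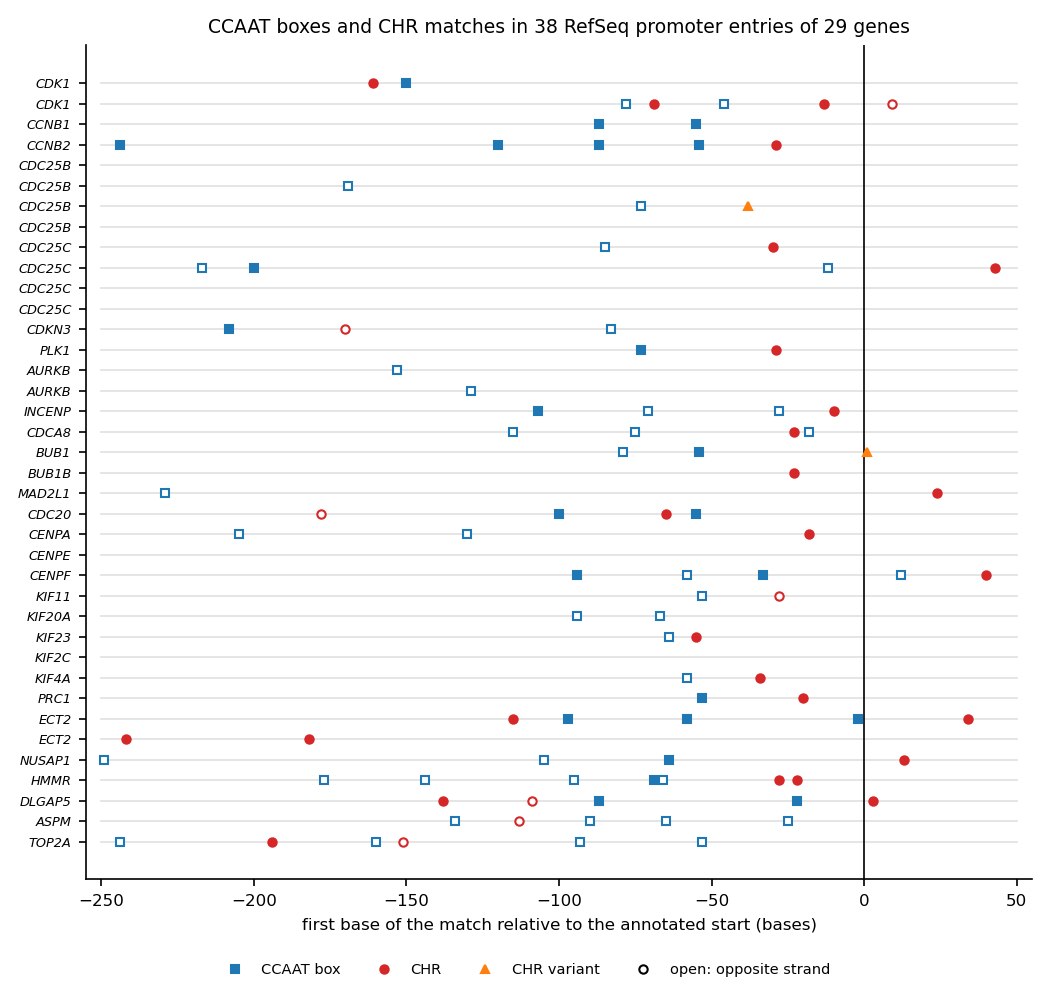
Positions of CCAAT boxes (squares), CHR matches (circles) and CHR variants (triangles) in the 38 promoter entries of 29 members, in bases from the annotated start. Filled symbols are on the gene's strand and open symbols on the opposite strand. CCAAT boxes gather near -84 and CHR matches near -29, and the KIF2C and CENPE lines are empty.

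All members were expressed well above the filter in every library. Per length, the highest means over the 6 libraries were those of UBE2C (139.8 RPKM) and CDC20 (132 RPKM), the E2 enzyme and an activator of the APC/C. They were followed by CCNB1 at 122 RPKM, the midzone protein PRC1 at 116 RPKM, and AURKB and MAD2L1 at 100.3 and 100.1 RPKM. The lowest means were those of CENPE (12.5 RPKM), CDC25C (14.2 RPKM), CENPA (16.2 RPKM), KIF4A (16.3 RPKM) and ASPM (16.7 RPKM). Levels moved little between libraries. The range of a gene over the 6 libraries was at most 0.57 on the log2 scale for 32 members, with CENPF (0.70) and ASPM (0.88) beyond it.

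Together the 34 genes took 0.545% of the reads with control siRNA (Wilson 95% interval 0.543% to 0.546%) and 0.467% with DDX3X siRNA (0.466% to 0.468%). The plasmid libraries lay between, at 0.483% in G302V, 0.497% in GFP, 0.511% in T275M and 0.514% in WT. With median-ratio scaling, control siRNA was still highest at 0.553%, but DDX3X siRNA at 0.501% lay above WT, T275M and G302V, and G302V was lowest at 0.480%. Summed over the members, RPKM was 1970 with control siRNA and 1661 with DDX3X siRNA.

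**Figure D2:**
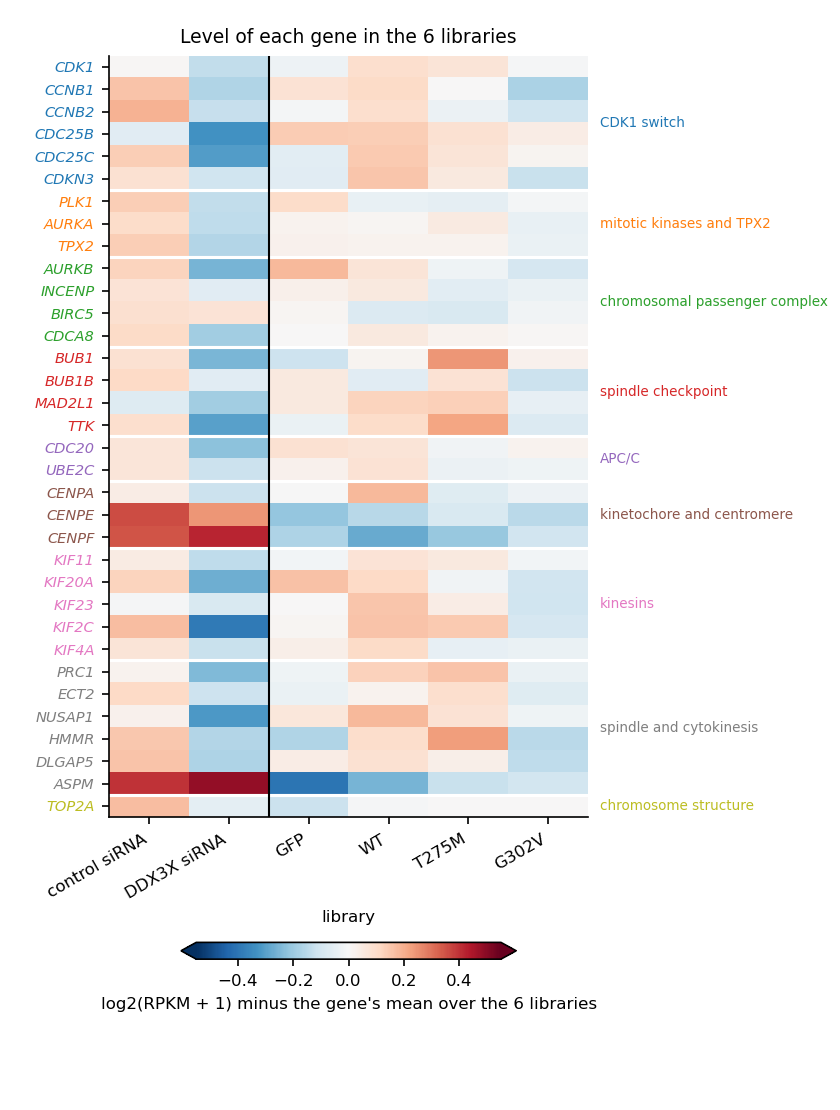
Level of each of the 34 genes in the 6 libraries, as log2(RPKM + 1) minus the gene's own mean over the libraries. Columns are libraries and rows are genes grouped by role. Most genes are lowest in DDX3X siRNA, while ASPM, CENPE and CENPF are high in both siRNA libraries and low in the 4 plasmid libraries.

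DDX3X knockdown came with lower mRNA levels across the mitotic genes, by small amounts. With DDX3X siRNA, 32 of the 34 were lower than with control siRNA, against 54.5% of all genes. The median log2 ratio was -0.25, against -0.024 over all genes and -0.033 over the 5570 genes in the members' range of mean RPKM. No member reached a 1.5-fold difference, which 2% of all genes passed. Beyond a smaller limit of 0.322 on the log2 scale, 9 members were lower, against 7.59% of all genes, and 0 were higher, against 7.52%. CCNB1 was the member just past that limit and CCNB2 the one just short of it. The counting interval lay below 0 for 31 members, against 40.1% of all genes, and above 0 for ASPM and CENPF, against 32.8%. In bulk RNA, fewer cells in G2 and mitosis and less of these mRNAs per cell cannot be told apart.

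These figures depended in part on how the libraries were scaled. RPKM divides by total reads. With median-ratio scaling, the members' median was -0.17 and that of all genes 0.048. Then 30 members were lower, against 41.0% of all genes, and 4 were higher (ASPM, CENPF, BIRC5 and KIF23). Beyond 0.322, 2 were lower (KIF2C and CDC25C), against 4.34% of all genes. This scaling moves all genes of a comparison by nearly one amount, so the distance between the members and all genes could not change with it.

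Genes of the CDK1 switch were all lower after knockdown, with a median ratio of -0.29 over 6 genes. CCNB1 (chromosome 5, 68462962 to 68474072 of GRCh37), the main mitotic cyclin, was at 135 RPKM with control siRNA and 108 RPKM with DDX3X siRNA, a ratio of -0.32 (-0.35 to -0.30). CDC25C (chromosome 5, 137620958 to 137674044), a phosphatase that activates CDK1, went from 15.6 to 11.3 RPKM, a ratio of -0.44 (-0.51 to -0.37). The kinase CDK1 itself (chromosome 10, 62538089 to 62554610) had the smallest difference of the 6, with 64.4 and 58.3 RPKM and a ratio of -0.14 (-0.18 to -0.10). CCNB2 (-0.32), CDC25B (-0.27) and the CDK-directed phosphatase CDKN3 (-0.19) lay between.

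PLK1, AURKA and TPX2 had ratios close to each other. PLK1 (chromosome 16, 23688977 to 23701688) was at 106 and 87.8 RPKM, a ratio of -0.27 (-0.30 to -0.24). AURKA (chromosome 20, 54944445 to 54967393), the centrosomal Aurora kinase, was at 48.8 and 41.1 RPKM, a ratio of -0.24 (-0.28 to -0.20). Its spindle activator TPX2 had a ratio of -0.30 (-0.32 to -0.27). The counting intervals of these genes overlapped from one to the next.

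Within the chromosomal passenger complex, which corrects kinetochore attachments and guides cytokinesis, the 4 subunits differed from each other. AURKB, its kinase (chromosome 17, 8108051 to 8113918), was at 109 and 83.4 RPKM, a ratio of -0.38 (-0.41 to -0.34). CDCA8 (borealin) followed with -0.30 (-0.34 to -0.25) and the scaffold INCENP with -0.14 (-0.17 to -0.10). BIRC5 (survivin) was at 65.8 and 65.3 RPKM, with a ratio of -0.011 (-0.042 to 0.019). The intervals of AURKB and BIRC5 do not overlap, and the BIRC5 interval holds 0.

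The 4 spindle checkpoint genes were all lower. TTK, the MPS1 kinase that starts the checkpoint signal, was at 36.4 and 27.5 RPKM, a ratio of -0.39 (-0.43 to -0.35), and the kinetochore kinase BUB1 at 59.5 and 47.1 RPKM, a ratio of -0.33 (-0.36 to -0.30). BUB1B and MAD2L1, which form part of the complex that holds CDC20, had smaller ratios of -0.17 and -0.12. The kinases thus lay lower than the inhibitor subunits, with intervals that do not overlap. Of the APC/C partners, CDC20 had a ratio of -0.29 (-0.32 to -0.26) and UBE2C of -0.18 (-0.22 to -0.14).

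The motor and spindle genes held both ends of the range. KIF2C (chromosome 1, 45205490 to 45233439), the kinesin MCAK that takes apart microtubule ends at centromeres, was at 36.5 RPKM with control siRNA and 24.4 RPKM with DDX3X siRNA. Its ratio of -0.56 (-0.60 to -0.52) was the lowest of the 34 and was short of 1.5-fold. KIF20A (MKLP2), which carries the passenger complex to the spindle midzone, followed with -0.39 (-0.43 to -0.35), whereas KIF23, its relative in the centralspindlin complex, had a ratio of -0.078 (-0.11 to -0.044) that turned to 0.0011 with median-ratio scaling. KIF4A and KIF11 had ratios of -0.20 and -0.19. The 5 kinesins thus spanned most of the range of the whole group.

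Among the other spindle and cytokinesis genes, NUSAP1 (-0.34), DLGAP5 (-0.33), HMMR (-0.31), PRC1 (-0.26) and ECT2 (-0.22) were close to each other. ASPM, a spindle pole protein, was the highest member, at 21.8 RPKM with control siRNA and 23.1 RPKM with DDX3X siRNA, a ratio of 0.082 (0.049 to 0.12). CENPF, a large kinetochore protein, was also higher, at 31.6 and 33.3 RPKM, a ratio of 0.073 (0.051 to 0.094), although its ratio was -0.12 relative to the median of other rows of 8 kb or more. The centromeric histone CENPA (-0.16) and the kinetochore motor CENPE (-0.11) were lower. TOP2A (chromosome 17, 38544777 to 38574148), the topoisomerase that untangles chromosomes, was at 98.1 and 83.9 RPKM, a ratio of -0.22 (-0.24 to -0.21).

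**Figure D3:**
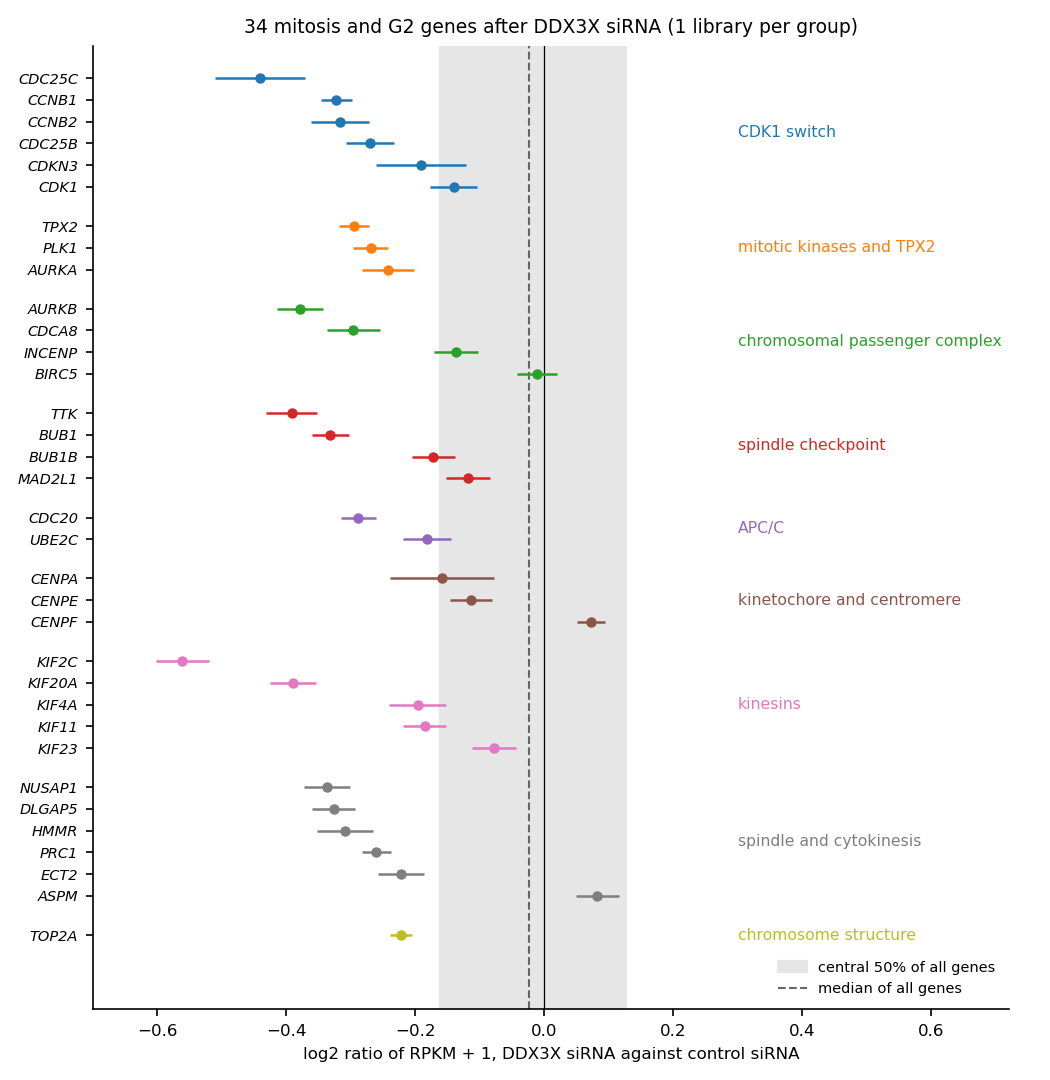
Log2 ratio of RPKM + 1 for DDX3X siRNA against control siRNA, for the 34 members grouped by role. Points are ratios of 1 library to another and bars are exact 95% counting intervals. The dashed line is the median of all genes (-0.024) and the grey band their central 50%. ASPM and CENPF lie to the right of 0, and with median-ratio scaling BIRC5 and KIF23 do too. Relative to rows of its own length, CENPF turns to -0.12.

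The ratios of these 2 libraries also moved with the length of the row. Over all genes the median ran from -0.10 for rows of 1 to 2 kb to 0.19 for rows of 8 kb or more. The 3 members at the top of the range, ASPM, CENPF and BIRC5, have rows of 6133, 10296 and 2631 bases, and CENPF and CENPE are the only members with rows of 8 kb or more. After the median of all genes of the same length class was taken away, the members' median was -0.24. Within the class of 2 to 4 kb, the 19 members had a median of -0.30, against -0.034 for 4847 genes. The 3 members at the top changed with this centring. CENPF turned from 0.073 to -0.12, BIRC5 from -0.011 to 0.022, and ASPM went from 0.082 to 0.028.

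Genes of the same pathway outside the group were read from lists of named genes. Of 57 other mitosis and G2 genes, 49 were lower with DDX3X siRNA and the median ratio was -0.15. In that list 10 were lower beyond 0.322 and 0 higher, and the largest difference was that of RACGAP1, the partner of KIF23 in centralspindlin, with 24.5 against 38.5 RPKM and a ratio of -0.63 (-0.67 to -0.59). The 16 APC/C subunits had a median of -0.11, with 13 lower. Of 44 G1/S and DNA replication genes, 37 were lower with a median of -0.25, which to 2 decimals is the same as that of the 34 members. UHRF1 had the lowest ratio in that list (-1.07, from 48.9 to 22.8 RPKM) and E2F1 the highest (0.66, from 17.5 to 28.1 RPKM).

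The regulators of the group were split. Of 16 genes for MuvB, B-MYB, FOXM1 and DREAM subunits, 7 were lower and 9 higher after knockdown, with a median of 0.0074. FOXM1 was at 44.8 RPKM with control siRNA and 52.7 RPKM with DDX3X siRNA, a ratio of 0.23 (0.20 to 0.26), and MYBL2 (B-MYB) at 141 and 150.1 RPKM, a ratio of 0.088 (0.068 to 0.11). CDKN1A, which encodes the CDK inhibitor p21, was at 5.54 and 6.88 RPKM, a ratio of 0.27 (0.17 to 0.37). Of 7 epithelial and kidney markers, 4 passed the filter and all 4 were lower with DDX3X siRNA, with a median of -0.33, and their part in the result was not tested. The summed level of that list was 44.4 to 62.9 RPKM over the 6 libraries, with PAX8 at or near 0.

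The knockdown ratios can be read by promoter class. The 21 members with both a CHR and a CCAAT box had a median of -0.22. The 5 with a CCAAT box and no CHR had one of -0.33, and among these BUB1 and CDC25B held the CHR variant. The 2 members without a match were KIF2C and CENPE, at -0.56 and -0.11. Among other expressed genes, the median was -0.041 for 641 genes with both motifs and -0.012 for 4371 with neither.

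WT DDX3X expression left the group close to its level in GFP cells. The members' median ratio was 0.064, against 0.055 over all genes, and 24 were higher, against 62.1% of all genes. With median-ratio scaling, the members' median was -0.034 and that of all genes -0.036. The split turned to 14 higher and 20 lower, against 58.0% of all genes lower. Genes in the members' range of mean RPKM had a median of -0.0021 with 50.5% lower, and relative to them the members' median was 0.066. No member was past 1.5-fold, against 2.21% of all genes. The highest ratios were those of HMMR, a spindle assembly factor (23.8 RPKM in GFP, 28.7 in WT, a ratio of 0.26, 0.20 to 0.32), CDKN3 (0.22) and CDC25C (0.20). PLK1 had the lowest, with 103 RPKM in GFP and 93.6 RPKM in WT, a ratio of -0.14 (-0.18 to -0.11), followed by BUB1B (-0.12) and CENPF (-0.11). All 6 of these kept their sign with median-ratio scaling.

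The T275M library gave a wider spread than WT around a similar centre, for all genes as well as for the members. The members' quartiles were -0.062 and 0.125 in T275M against GFP, and -0.0047 and 0.137 in WT against GFP. Those of all genes were -0.080 and 0.215 in T275M, and -0.059 and 0.179 in WT. The members' median in T275M against GFP was 0.019, against 0.070 over all genes. Of the members, 15 were lower, against 37.8% of all genes, and 19 higher, against 62.2%. Median-ratio scaling made this 22 lower, against 53.0% of all genes, and 12 higher, with a median of -0.077. Genes in the members' range of mean RPKM had a median of -0.011 with 52.3% lower, so the members lay above these and below all genes, with 21 higher relative to them. No member passed 1.5-fold, against 2.64% of all genes. HMMR and BUB1 were higher than in GFP by more than 0.322, 2 members against 12.5% of all genes, and 0 members were with median-ratio scaling (HMMR 0.30, BUB1 0.26). HMMR was at 31.6 RPKM against 23.8, a ratio of 0.40 (0.34 to 0.46), and BUB1 at 66.6 RPKM against 51.9, a ratio of 0.35 (0.32 to 0.39). ASPM followed with 0.28, and rows of 4 to 8 kb, its class, had a median of 0.14 over all genes. AURKB was lowest, with 98.2 RPKM against 113 and a ratio of -0.20 (-0.25 to -0.15), then KIF20A (-0.18) and PLK1 (-0.15).

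In G302V cells more members lay below GFP. The median ratio was -0.059, against 0.025 over all genes, and 25 were lower, against 45.2% of all genes. With median-ratio scaling, 28 members were lower, against 52.3% of all genes. Genes in the members' range of mean RPKM had a median of -0.036 with 58.4% lower, and relative to them the members' median was -0.023, with 20 lower and 14 higher. No member passed 1.5-fold, against 1.77% of all genes. AURKB (93.5 RPKM against 113, a ratio of -0.27, -0.32 to -0.22), KIF20A (32.6 against 39.4, a ratio of -0.27, -0.32 to -0.22) and CCNB1 (107 against 128, a ratio of -0.25, -0.29 to -0.22) were lowest. ASPM was highest with 0.30 (0.24 to 0.36), then BUB1 (0.13) and TOP2A (0.12). Rows of 4 to 8 kb, the class of ASPM and TOP2A, had a median of 0.12 over all genes, and relative to it ASPM was at 0.18 and TOP2A at 0.0022. Of the 44 G1/S and replication genes, 42 were lower in G302V than in GFP, with a median of -0.20.

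Some genes kept one side of GFP in all 3 DDX3X plasmid libraries. CDK1, CDC25C, CDCA8, BUB1, CENPE, HMMR, ASPM and TOP2A were above GFP in each, 8 members against 40.4% of all genes. CDC25B, PLK1, TPX2, AURKB, BIRC5, CDC20 and KIF20A were below it in each, 7 members against 22.8%. The members above GFP were thus fewer than the background share. CDK1 was at 62.8 RPKM in GFP and 63.8 to 68.4 RPKM in the 3 others, and TOP2A at 80.1 RPKM against 86.6 to 87.3 RPKM. PLK1 was at 103 RPKM against 93.2 to 95.8 RPKM. These 3 comparisons share the GFP library, and with median-ratio scaling CDK1, CDCA8, CENPE and HMMR lay below GFP in at least 1 of them. The 7 members below GFP stayed below it in each with that scaling. CCNB1, AURKA, INCENP, CDCA8, BUB1B, MAD2L1, UBE2C, KIF11, KIF4A and DLGAP5 then joined them. The number below GFP in each thus depended on the scaling, and the share of all genes under median-ratio scaling is not given. CDKN1A was at 7.38 RPKM in GFP, 16.3 in WT, 22.7 in T275M and 21.1 in G302V, which is 2.20, 3.07 and 2.86 times its RPKM in GFP.

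**Figure D4:**
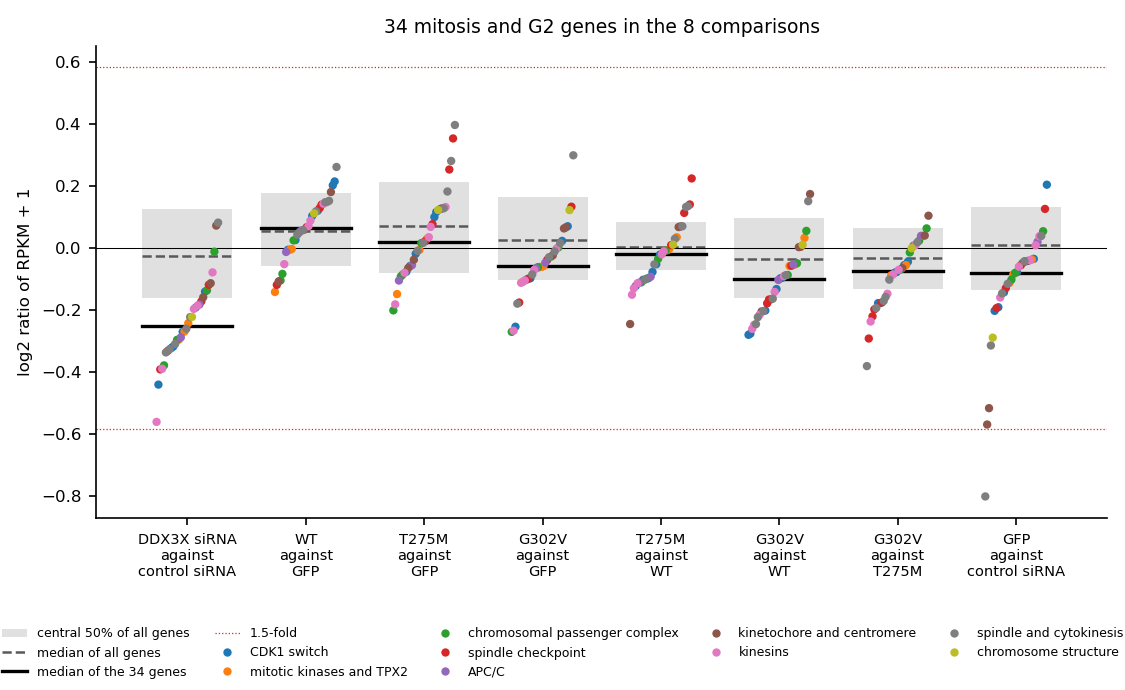
Log2 ratios of the 34 members (points, coloured by role) in the 8 comparisons, each of 1 library with 1 other. Black bars are the members' medians, dashed bars the medians of all genes, grey boxes the central 50% of all genes and dotted lines 1.5-fold. The members' median leaves the grey box in the knockdown only, and ASPM in GFP against control siRNA is the only point past 1.5-fold. With median-ratio scaling the members' medians of WT and T275M against GFP change sign to -0.034 and -0.077.

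Compared directly with WT, the mutants differed from each other. T275M against WT had a median of -0.020, against 0.0046 over all genes. In it 22 members were lower, against 48.6% of all genes and 55.3% of those in the members' range of mean RPKM. No member was past 1.5-fold, against 0.347% of all genes. The 4 spindle checkpoint genes were all higher in T275M, BUB1 with 0.22 (0.19 to 0.26), BUB1B with 0.14 (0.095 to 0.19), TTK with 0.11 and MAD2L1 with 0.0097, a value whose interval holds 0. HMMR had a ratio of 0.14. The 6 genes of the CDK1 switch were all lower, with intervals that hold 0 for CDK1 and CDC25C, and CENPA (-0.25, -0.35 to -0.14), KIF4A (-0.15) and KIF20A (-0.13) were lowest.

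G302V against WT had a median of -0.10, against -0.034 over all genes, and 27 members were lower, against 57.4% of all genes. With median-ratio scaling, 22 were lower, against 46.0% of all genes, and the median was -0.040. No member passed 1.5-fold, against 1.76% of all genes, and 0 were lower beyond 0.322, against 7.23%. CCNB1 was at 107 RPKM in G302V and 130.2 RPKM in WT, a ratio of -0.28 (-0.32 to -0.25). CDKN3 (-0.28, -0.37 to -0.18) and KIF23 (-0.26, -0.31 to -0.21) were close to it. CENPF (0.17), ASPM (0.15) and BIRC5 (0.056) were highest. Rows of 8 kb or more had a median of 0.19 over all genes in this comparison, and relative to it CENPF was at -0.017. Each of the 6 CDK1 switch genes and each of the 5 kinesins was lower, with medians of -0.17 and -0.21, and these signs held with median-ratio scaling.

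Between the mutants, G302V was lower than T275M for 25 members, against 58.4% of all genes, with a median of -0.074, against -0.031. Median-ratio scaling gave 21 lower, against 44.6% of all genes, and a median of -0.018. HMMR had the largest difference, with 24.1 RPKM in G302V and 31.6 RPKM in T275M, a ratio of -0.38 (-0.45 to -0.32), and was the 1 member lower beyond 0.322, against 5.18% of all genes. TTK (-0.29, -0.35 to -0.24) and KIF2C (-0.24, -0.30 to -0.18) followed. CENPF (0.10), BIRC5 (0.064) and CENPA (0.041, -0.079 to 0.16) were highest. Rows of 8 kb or more, the class of CENPF, had a median of 0.086 over all genes. No member passed 1.5-fold, against 1.2% of all genes. The 4 checkpoint genes were all lower in G302V, with a median of -0.21. This comparison shares its T275M library with T275M against WT. In G302V against WT, 3 of the 4 were lower, with a median of -0.11. FOXM1 was at 60.02 RPKM in G302V and 47.0 to 48.7 RPKM in the 3 other plasmid libraries.

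Taking the libraries in order, G302V was the lowest of the 4 plasmid libraries for 18 of 34 members, against 28.7% of all genes. GFP was lowest for 8 members, against 40.4% of all genes, T275M for 7, against 15.6%, and WT for CENPF, against 15.3%. WT was highest for 15 members, against 25.8%, and G302V for CENPF and ASPM, against 24.3%. With median-ratio scaling, CCNB1, INCENP, CDCA8, UBE2C, KIF11, KIF4A and DLGAP5 of those 15 lay below GFP in WT. CDC25B, AURKA, TPX2 and BUB1B were then no longer lowest in G302V. The shares of all genes for these orders under that scaling are not given. Over all 6 libraries, DDX3X siRNA was lowest for 24 members, against 36.1% of all genes, a number that became 15 with median-ratio scaling. Control siRNA was highest for 14 members, against 11.2% of all genes, and lowest for 0, against 16.8%.

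GFP cells and control siRNA cells differed in transfection, time and sorting, which cannot be told apart here. The members' median ratio was -0.079, against 0.0093 over all genes, and 27 were lower, against 48.1% of all genes. ASPM (chromosome 1, 197053251 to 197115824) was the only member past 1.5-fold in any comparison with a pseudocount of 1 and no centring, against 2.33% of all genes in this one. It was at 12.1 RPKM in GFP and 21.8 RPKM with control siRNA, a ratio of -0.80 (-0.85 to -0.75). CENPE was at 10.5 and 16.1 RPKM, a ratio of -0.57 (-0.62 to -0.52) that passed 1.5-fold with a pseudocount of 0.1 (-0.61) and relative to genes in the members' range of RPKM (-0.61). CENPF was at 21.8 and 31.6 RPKM, a ratio of -0.52 (-0.55 to -0.49). These 3 were the members lower beyond 0.322, against 8.41% of all genes. CDC25B (0.20), MAD2L1 (0.13) and AURKB (0.055) were highest.

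ASPM, CENPE and CENPF were lower in all 4 plasmid libraries than in both siRNA libraries. ASPM was at 12.1, 13.5, 14.9 and 15.1 RPKM in GFP, WT, T275M and G302V, and at 21.8 and 23.1 RPKM in the siRNA libraries. CENPE was at 10.5 to 11.6 RPKM in the plasmid libraries and 14.8 and 16.1 RPKM in the siRNA libraries. CENPF was at 20.1 to 22.9 RPKM against 31.6 and 33.3 RPKM. With BIRC5, these were the 4 members whose plasmid values all lay below both siRNA values, 11.8% of members against 14.5% of all genes. CDC25B and MAD2L1 had all plasmid values above both, 5.88% of members against 22.6%. Neither share was above that of all genes.

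These 3 genes have long rows, of 6133, 8612 and 10296 bases, and long rows as a class were lower in GFP. Over all genes the median ratio was 0.028 for rows of 2 to 4 kb, -0.047 for 4 to 8 kb and -0.24 for 8 kb or more. ASPM, CENPE and CENPF lay below the central 50% of their own classes, which ran from -0.18 to 0.073 and from -0.42 to -0.10. Relative to the medians of their classes ASPM was at -0.75, CENPE at -0.33 and CENPF at -0.28, the last short of the 0.322 limit. The 5 members of 4 to 8 kb together had a median of -0.060, close to that of their class. ANLN, from the list of other mitosis genes, was also past 1.5-fold, with 29.2 RPKM in GFP and 45.0 RPKM with control siRNA, a ratio of -0.61 (-0.65 to -0.57). Of the 44 G1/S and replication genes, 43 were higher in GFP than with control siRNA, with a median of 0.13, the opposite side from most members.

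**Figure D5:**
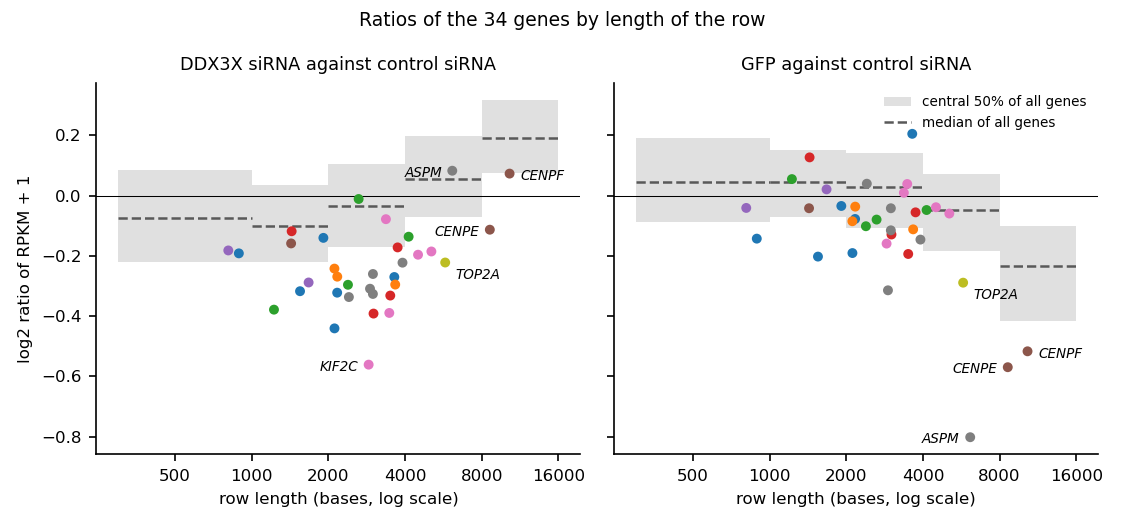
Log2 ratio of RPKM + 1 against the length of the row in bases (log scale) for the 34 members, for DDX3X siRNA (left) and GFP (right), each against control siRNA. Grey boxes and dashed lines are the central 50% and the median of all genes in 5 length classes. On the left KIF2C (-0.56) is lowest, and the medians of all genes are highest in the classes of long rows. There TOP2A (-0.22) and CENPE (-0.11) lie below the boxes of their classes, and ASPM (0.082) lies within its own. On the right ASPM, CENPE and CENPF lie below the boxes of their classes.

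Knockdown ratios were also read from the other rows of each symbol. Of the members, 16 had 1 row and 18 had several, up to 6, which share reads between isoforms. In the knockdown, the rows of a member differed by at most 0.045 on the log2 scale, and for all 34 every row had the sign of the chosen one.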

How the data were processed

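RNA-seq libraries (TruSeq RNA v2) were made from about 1 µg of total RNA, 1 library per group. Per the study's methods, the authors trimmed reads with cutadapt, aligned them with BWA 0.5.5 to NCBI Build 37 (hg19) and transcript sequences, removed duplicates and counted reads per gene. The deposited values are RPKM, normalized by the authors to row length and library reads, in tables of 39618 rows. Read numbers and library depth were recovered from the steps of the RPKM values (in 6339 to 7505 rows checked per library, 100% came out whole within 0.1 reads).

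Genes entered a comparison with at least 1 RPKM and 10 reads in 1 of its 2 libraries. Ratios were differences of log2(RPKM + 1). Since the ratio understates the change of low genes, RPKM values are given beside it. With 1 library per group no test was run, and genes were read against a 1.5-fold difference, a smaller limit of 0.322 on the log2 scale, and all genes. Counting intervals were exact at 95%, and intervals of shares were Wilson intervals. Values of 3 members per direction are named in each plasmid comparison, by size, and all roles in the knockdown. Alternatives were other folds, pseudocounts, filters, row choices and scaling. Centring on length class and on RPKM range, and the orders under other scalings, were added after seeing the data. The members and lists were chosen with earlier results of these data known. Gene positions are from GENCODE 44 lifted to GRCh37, and promoters from RefSeq on GRCh38.p14, so no coordinate was carried between builds. Isoform rows share reads, which can affect levels. Python 3.11.15, numpy 2.4.6, pandas 2.3.3, scipy 1.17.1 and matplotlib 3.10.9 were used, and the scripts were tested on simulated data.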

Additional observations from a re-analysis of the deposited data

How the results depend on the processing

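No median changed sign under the other filters, pseudocounts and row choices. At the smaller limit of 0.322 on the log2 scale, 9 members were past it in the knockdown and 2 in T275M against GFP. It was passed by 1 member in G302V against T275M and 3 in GFP against control siRNA. In GFP against control siRNA, 1 member was past 1.5-fold, and 0 were past 2-fold. That 1.5-fold count became 2 with a pseudocount of 0.1 and 0 with a pseudocount of 10. It was 2 after centring on genes in the members' range of RPKM. The knockdown median was -0.21 with a pseudocount of 10. Median-ratio scaling gave medians of -0.17 in the knockdown, -0.034 in WT and -0.077 in T275M against GFP, -0.040 in G302V against WT and -0.018 in G302V against T275M, so those of WT and T275M against GFP changed sign. It left DDX3X siRNA lowest for 15 members. It also left 0 members of T275M against GFP past 0.322. Centring on length class gave 0.0082 in WT and -0.051 in T275M against GFP, the latter with a change of sign. The cause of these changes was not tested. Median-ratio scaling moves all genes of a comparison by nearly one amount.

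The share of reads on the members with median-ratio scaling was 0.509% in GFP, 0.490% in WT, 0.489% in T275M, 0.480% in G302V, 0.553% with control siRNA and 0.501% with DDX3X siRNA. Summing all rows, which counts shared reads more than once, gave 0.904%, 0.944%, 0.936%, 0.878%, 0.975% and 0.837% in that order. No paired analysis was possible because each group holds 1 library, and for the same reason no replicate could be left out. Depth limits the rarest members most, with 987 reads for CENPA in G302V.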
